A study of Mus musculus with 24 samples.

Results

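Distal stretches of chromatin that carried H3K4me1 without H3K27ac in wild-type lung endothelial cells, and no H3K4me1 once Dnmt3a was knocked out, were the subject of the analysis. H3K4me1 peaks of wild type (WT) and knockout (KO) were merged where they overlapped by at least 1 bp. A merged region was called distal if it lay over 1000 bp from both ends of every protein-coding gene and overlapped no H3K4me3 and no H3K27me3 peak of either genotype. Of 38353 such distal regions, 6075 overlapped an H3K4me1 peak in WT, none in KO, and no WT H3K27ac peak. These 6075 lost primed regions were 15.8% of the distal regions, where 20.0% had H3K4me1 in WT only whatever their H3K27ac. The members were chosen by the difference in H3K4me1 between the genotypes, so their number is a description of the lists and was not tested.

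The cells were endothelial cells sorted by FACS from the lungs of mice labelled ko or wt, where ko stands for loss of Dnmt3a. The promoter or Cre that drove the deletion, whether other cells of the mice lacked the gene, and the age of the animals are not stated in the labels. Marks were mapped by ACT-seq, in which an antibody carries a transposase loaded with adapters to the mark in permeabilised cells. Yeast nuclei with a transposase complex against H2B were added to each reaction. The labels name 24 samples in 8 groups, 3 for each mark and genotype, and the processed data held 1 list of peaks per group, without heights or scores. The depth is unknown and no spread between replicates could be computed. Differences were therefore taken between lists of peaks, and their 95% intervals cover counting error alone and treat regions as independent.

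H3K4me1 is laid down at enhancers by the MLL3 and MLL4 methyltransferases. A distal element with H3K4me1 and no H3K27ac is usually called primed, and H3K27ac, written by the EP300 and CREBBP acetyltransferases, marks elements in active use. DNMT3A adds methyl groups to cytosines at CpG dinucleotides, and its ADD domain binds the H3 tail when lysine 4 bears no methyl group. In endothelium, distal elements are known for binding ETS, SOX, FOX, GATA and AP-1 factors.

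The 8 lists held 313065 peaks on chromosomes 1 to 19. WT had 49363 H3K4me1 peaks with a median width of 384 bp, and KO had 48458 with a median of 461 bp. The H3K27ac list was longer in WT (81112 peaks) than in KO (44484). At the gene ends of 8 endothelial markers, 7 carried H3K4me3 and 8 carried H3K27ac in both genotypes, the exception for H3K4me3 being Egfl7. None of 6 leukocyte markers carried either mark in either genotype. Of 5 epithelial markers 1 had H3K4me3 in WT and 2 in KO, and of 5 mural and mesenchymal markers 0 had it in WT and 1, Acta2, in KO. H3K27ac was at 1 epithelial and 0 mural markers in each genotype, and the part of such cells in the results was not tested. Dnmt3a (chr12:3801559-3914443) held 0 lost primed regions inside the gene or within 5000 bp, and 6 regions of the opposite kind, primed in KO and without H3K4me1 in WT. The lists do not show which part of Dnmt3a was deleted.

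Where a lost region reached the start of an annotated transcript, its bases could be read from RefSeq windows of GRCm38.p6 (mm10), which run from 250 bases before to 50 bases after a start. Since protein-coding gene ends were excluded, these starts were those of transcripts beginning inside genes and of noncoding RNAs. Of the 6075 regions, 59 (0.971%) reached such a window. They covered 62 of 31396 windows, 19 of protein-coding genes and 43 of lncRNAs. The sequences below are the overlap of a lost region with the bases before the start, and were picked after their values were seen to show the range of CpG content, a region in an endothelial gene, and both states of KO H3K27ac. CpG dinucleotides, the targets of DNMT3A, are in capitals, and each sequence is given 5′ to 3′ on the strand of its transcript.
Gm29682, a lncRNA inside Cdh5 (chr8:104105874-104106064, minus strand): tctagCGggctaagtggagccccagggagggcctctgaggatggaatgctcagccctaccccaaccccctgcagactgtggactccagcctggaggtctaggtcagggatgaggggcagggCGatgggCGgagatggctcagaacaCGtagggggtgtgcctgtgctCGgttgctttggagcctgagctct
C1qtnf6 (chr15:78529652-78529901, minus strand): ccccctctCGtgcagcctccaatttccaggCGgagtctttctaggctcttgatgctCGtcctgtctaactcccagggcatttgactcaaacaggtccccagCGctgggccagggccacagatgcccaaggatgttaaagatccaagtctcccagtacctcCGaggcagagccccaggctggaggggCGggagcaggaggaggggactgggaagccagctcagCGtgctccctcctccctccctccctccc
Limch1 (chr5:66968178-66968404, plus strand): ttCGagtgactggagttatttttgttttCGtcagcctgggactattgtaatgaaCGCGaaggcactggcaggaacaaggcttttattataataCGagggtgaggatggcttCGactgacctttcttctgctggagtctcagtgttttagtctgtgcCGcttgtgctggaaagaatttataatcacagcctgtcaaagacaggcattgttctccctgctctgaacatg
Fbxw7 (chr3:84952090-84952210, plus strand): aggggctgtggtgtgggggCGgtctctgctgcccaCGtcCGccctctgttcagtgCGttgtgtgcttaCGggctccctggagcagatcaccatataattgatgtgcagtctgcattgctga
Sult1a1, KO H3K27ac present (chr7:126676419-126676594, minus strand): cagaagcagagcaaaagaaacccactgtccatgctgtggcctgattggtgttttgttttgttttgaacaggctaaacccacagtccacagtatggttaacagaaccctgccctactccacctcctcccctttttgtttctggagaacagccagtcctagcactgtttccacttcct
Akap7, KO H3K27ac present (chr10:25200150-25200242, minus strand): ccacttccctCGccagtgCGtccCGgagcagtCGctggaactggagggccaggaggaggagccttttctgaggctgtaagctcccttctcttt

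The stretch in Cdh5, the gene of VE-cadherin, the adhesion molecule of endothelial junctions, held 5 CpG in 191 bases and belonged to a lost region of 206 bp. The one at C1qtnf6, a secreted C1q and TNF-related protein, held 7 CpG in 250 bases, and that at Limch1, an activator of non-muscle myosin, 7 in 227. Fbxw7, the substrate receptor of a ubiquitin ligase that degrades Notch intracellular domains, gave 5 CpG in 121 bases. The stretch at Sult1a1, a phenol sulfotransferase, held 0 CpG in 176 bases, and that at Akap7, an anchor of protein kinase A, 4 in 93. The whole windows over lost regions had a median of 5 CpG, all 31396 windows a median of 7 and lncRNA windows a median of 4. Windows over regions new in KO and over regions primed in both genotypes also had a median of 5.

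Short motifs were looked up on both strands of the same 300-base windows. Of the 62 windows over lost regions 43 were lncRNA starts, while all windows are mostly protein-coding starts, so the share over the 11311 lncRNA windows is also given. The ETS core AGGAAG was in 31 of the 62 (50.0%), against 35.1% of all windows and 37.2% of lncRNA windows. The share was 53.1% over regions new in KO, 54.2% over those primed in both and 55.4% over those active in both. TGANTCA, read by AP-1, was in 9 (14.5%, against 7.84% and 9.25%), with 6.12%, 13.9% and 9.90% over those 3 sets. The SOX string ACAATG was in 13 (21.0%, against 12.2% and 15.3%), with 12.2%, 16.7% and 15.8%. The FOX string TGTTTA was also in 13 (21.0%, against 13.5% and 17.0%), with 16.3%, 15.3% and 24.3%. AGATAA for GATA was in 10 (16.1%, against 11.2% and 13.96%), with 12.2%, 16.7% and 17.3%. GGGTGTG for KLF was in 9 (14.5%, against 8.00% and 7.85%), with 13.3%, 6.94% and 9.90%. None of these strings contains another, but their matches may overlap. A longer CTCF string was CCA then AGG then GGC, with 2 free bases after the first and 1 after the second. It was in 5 windows over lost regions (8.06%, against 0.933% and 0.760%), with 0%, 0% and 0.990% over those 3 sets. However, 3 of the 5 were starts of 1 lncRNA sharing a match outside the lost region, so the 8.06% counts that match 3 times. The remaining CTCF matches lay inside lost regions, each printed here with its match in capitals.
Gstm6, a glutathione S-transferase (match at chr3:107943887-107943898): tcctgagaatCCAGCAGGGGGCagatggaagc
Gm30470, a lncRNA (match at chr11:79224617-79224628): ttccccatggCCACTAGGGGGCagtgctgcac
A match is a description of letters and shows no binding. The sequence of lost regions away from these windows was not analysed here.

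The lost primed regions were narrow. Each consisted of exactly 1 WT H3K4me1 peak, with a median width of 190 bp, quartiles of 141 and 264 bp and a range from 91 to 900 bp. In all, 3297 of them (54.3%) were under 200 bp and 141 (2.32%) reached 500 bp. Together they covered 1317 kb. The 8728 distal regions with the opposite change, H3K4me1 in KO only and no KO H3K27ac (22.8% of distal regions), had a median of 250 bp. The 5433 regions primed in both genotypes had a median of 458 bp, but each of those joins WT and KO peaks, and the widest WT peak in them had a median of 287 bp. A width is the caller's outcome, and the shortest peak kept in the WT list was 91 bp against 113 bp in the KO list.

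Of all 13908 distal regions primed in WT, 43.7% had no H3K4me1 peak in KO. Read from the other side, 51.5% of the 16936 regions primed in KO had none in WT. These shares come from the lists that the rule used and are given as a description. A wider peak is also more likely to meet any KO peak by its width alone. The share lost was 67.3% for peaks under 150 bp, 59.9% at 150 to under 200 bp, 47.1% at 200 to under 300 bp, 25.3% at 300 to under 500 bp and 9.44% at 500 bp or wider. In every one of these width classes the share of KO regions absent from WT was higher, from 74.6% in the narrowest to 24.2% in the widest. The ratio of lost to new primed regions was 0.696 over all widths and 0.501 after peaks under 200 bp were left out of all lists.

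**Figure D1:**
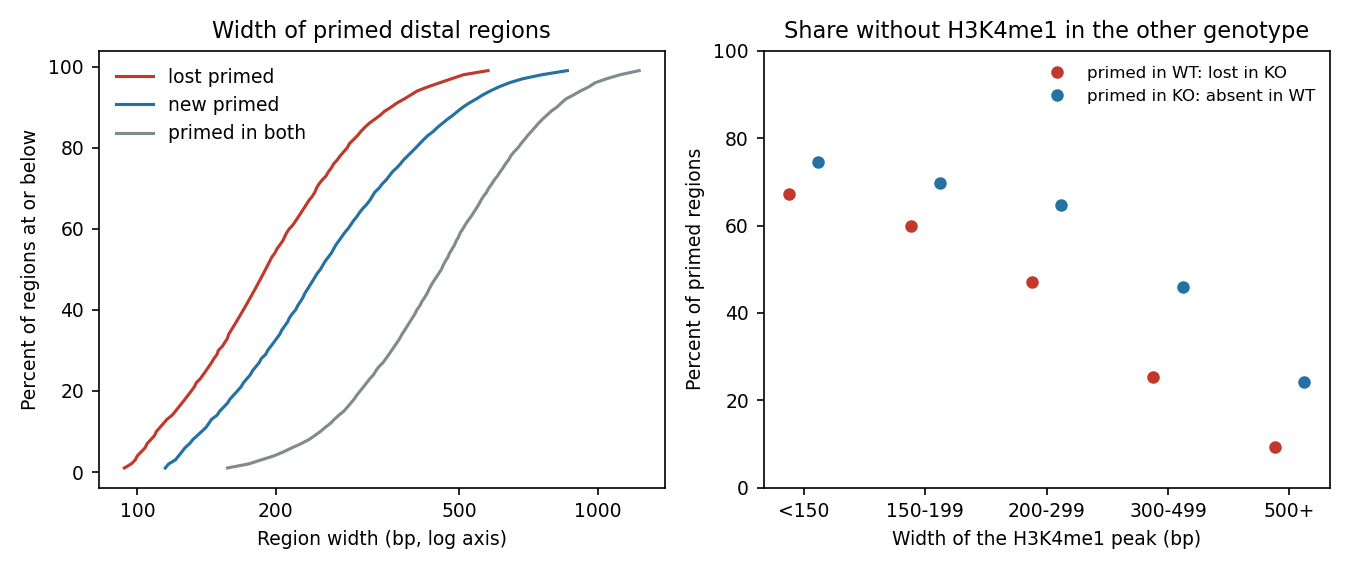
Left, cumulative width of the 6075 lost primed, 8728 new primed and 5433 both-genotype primed distal regions, as the percent of regions at or below each width in bp (log axis, percentiles 1 to 99). Right, percent of regions primed in one genotype without H3K4me1 in the other, by width class of the H3K4me1 peak. The lost regions lie furthest left, with a median of 190 bp, and the share lost falls from 67.3% to 9.44% as the WT peak widens.

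Loss was spread over the genome. Per chromosome, the share of WT primed regions that were lost ran from 39.5% on chromosome 11 to 47.3% on chromosome 13. Of the members, 4963 (81.7%) had no other lost region within 10 kb and 18.3% had one. Of regions primed in both genotypes 20.4% had another of their own set within 10 kb, and of new primed regions, which are more numerous, 31.7%. There were 473 pairs, and 53 groups of at least 3 that together held 166 regions. The 2 largest groups had 5 members each. One lay outside any protein-coding gene (chr11:109078785-109087785). The other spanned 15.1 kb in Ankrd44 (chr1:54870794-54885938), a regulatory subunit gene of protein phosphatase 6, where 1 of the 5 had H3K27ac in KO. Groups of 4 lay in Hivep1, a zinc finger factor, in Pcbp3, a poly(C)-binding protein, and in Synpo2, an actin-binding protein.

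The H3K27ac list of KO was not used to choose the members. A KO H3K27ac peak overlapped 614 of the 6075 lost regions, 10.1% (9.36 to 10.9), where 38.9% of all distal regions had one, including regions with H3K27ac in WT. A closer comparison is with the 7833 regions that also lacked H3K27ac in WT but kept H3K4me1 in KO. Of those, 2400 (30.6%, 29.6 to 31.7) had H3K27ac in KO, so the lost regions were lower by 20.5 percentage points (difference -20.5, interval -21.8 to -19.3). In the mirror case, WT H3K27ac lay on 14.2% of the 8728 new primed regions. It lay on 33.8% of regions that kept H3K4me1 and lacked H3K27ac in KO (difference -19.6, -20.9 to -18.3). A gap of similar size was thus present in both directions. The share at new primed regions was 4.10 points more than that of KO H3K27ac on lost ones (difference -4.10, -5.15 to -3.04). The KO list of H3K27ac is also the shorter one, and the part of list length in that last difference was not tested.

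Because kept regions are wider, KO H3K27ac was also read in a fixed window of 200 bp around the centre of each WT H3K4me1 peak, a step added after the data had been seen. It was found at 10.1% of lost and 28.2% of kept regions (difference -18.1, -19.3 to -16.8). Within classes of WT peak width the shares were 8.55% and 17.4% under 150 bp, 9.16% and 21.8% at 150 to under 200 bp, 10.4% and 26.4% at 200 to under 300 bp, 12.7% and 31.2% at 300 to under 500 bp, and 19.1% and 36.2% at 500 bp or wider. The lost regions were lower in each of the 5 classes, and no interval of a difference included 0.

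**Figure D2:**
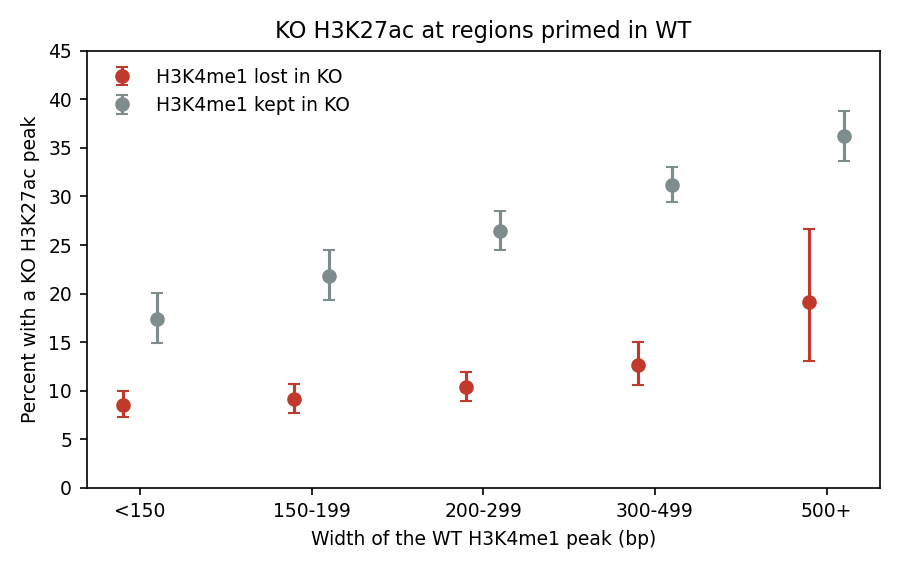
Percent of distal regions primed in WT that had a KO H3K27ac peak within a 200-bp window at the centre of the WT H3K4me1 peak, by width class of that peak in bp, with exact 95% intervals. Regions that lost H3K4me1 (red) lie between 8.55% and 19.1%, below those that kept it (grey) in every class.

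The 614 lost regions with H3K27ac in KO, where acetylation was listed without H3K4me1, had a median width of 212 bp against 188 bp for the other members. The KO H3K27ac peaks on them had a median width of 227 bp, and 47 reached 500 bp. They lay inside a protein-coding gene in 55.9% of cases. Their nearest KO H3K4me1 peak was within 1 kb at 26.2% of them and at 26.2% of the others. The widest such member, of 800 bp, was in Tox3, a high mobility group box factor (chr8:90323203-90324002), under a KO H3K27ac peak of 374 bp. A region of 725 bp (chr10:109340370-109341094) lay 329 kb from its nearest gene, Syt1, the synaptic vesicle calcium sensor. In Iqgap2, a scaffold protein, a member of 713 bp (chr13:95652286-95652998) carried a KO H3K27ac peak of 656 bp that began at the same base. Those in Tfcp2l1, a grainyhead-like transcription factor, and Asb5, an ankyrin-repeat ubiquitin ligase adaptor, were 668 and 657 bp wide, with KO H3K27ac peaks of only 111 and 117 bp.

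The 10 widest lost regions ranged from 744 to 900 bp. The widest, of 900 bp, lay in Cspp1, a centrosome and spindle protein (chr1:10095986-10096885), with the nearest KO H3K4me1 peak 39.2 kb away and WT H3K27ac 33.6 kb away. The next lay in Ranbp9, a Ran-binding scaffold protein (854 bp, chr13:43452770-43453623), 76.8 kb from KO H3K4me1 but 2.14 kb from WT H3K27ac. The region in Sik2, a salt-inducible kinase (819 bp), had a KO H3K4me1 peak at 4.40 kb, and that in Avl9 (813 bp) at 30.7 kb. Isolation therefore varied among wide members.

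Further members of this size lay in Clasp1, which stabilises microtubule plus ends (796 bp), in Atp11a, a phospholipid flippase (753 bp), and in Cacna1h, a T-type calcium channel (744 bp). One in Vdr, the vitamin D receptor (754 bp, chr15:97904563-97905316), lay 2.98 kb from a gene end and 41.0 kb from KO H3K4me1. One lay 4.71 kb from Ddx6, an RNA helicase of mRNA decay (749 bp, chr9:44645439-44646187). Tox3 alone among these 10 had H3K27ac in KO.

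Lost regions sat inside protein-coding genes somewhat less often than the other primed sets. Of the 6075, 3656 (60.2%, 58.9 to 61.4) overlapped a gene, where the share over all distal regions was 61.7%. It was 67.0% for new primed regions (difference -6.80, -8.38 to -5.22) and 66.4% for regions primed in both genotypes (difference -6.26, -8.02 to -4.50). Against the 1588 regions that were active in WT and lost H3K4me1, at 50.1%, the lost primed regions were more often in genes (difference 10.1, 7.31 to 12.8). Compared with kept regions of the same WT width, the lost ones were lower by 4.82 to 6.32 points in the 4 classes below 500 bp (differences -5.67, -4.82, -5.40 and -6.32), and at 500 bp or wider the interval included 0 (difference -2.35, -10.9 to 5.49). The annotation used has no exons, so exonic and intronic regions were not separated.

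The median distance to the nearest gene end was 31.4 kb (quartiles 10.9 and 82.5 kb), near the 29.9 kb of all distal regions. It was 25.9 kb for new primed regions, 25.3 kb for those primed in both genotypes and 40.5 kb for active ones that lost H3K4me1. In 1228 cases (20.2%) it was over 100 kb, against 18.9% of all distal regions. A lncRNA gene was overlapped by 682 members (11.2%), against 12.0% of all distal regions, 11.5% of new primed regions and 11.5% of regions primed in both. On the 1000 bp threshold itself, 129 regions that otherwise met the rule lay 500 to 1000 bp from a gene end and 107 members 1000 to 1500 bp, with median widths of 194 and 171 bp.

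Distances to H3K4me1 beyond the overlap itself are given as a description, since the rule used these lists. The nearest KO H3K4me1 peak was a median of 5091 bp away, within 1 kb for 1591 members (26.2%), within 5 kb for 49.6% and within 50 kb for 91.3%. The nearest other WT H3K4me1 peak was about as far, at a median of 5317 bp and within 5 kb for 48.4%. From new primed regions to WT H3K4me1 the median was 2896 bp, with 61.0% within 5 kb. Just outside the rule were 530 regions whose WT and KO H3K4me1 peaks shared at most 100 bp, and just inside it 221 members with a KO H3K4me1 peak within 100 bp. A few members were far from any KO H3K4me1. Among those inside genes, the farthest was in Ctnna2, a neuronal alpha-catenin, at 4124 kb (chr6:77373059-77373217). The next were in Lrp1b, a lipoprotein receptor relative, at 2157 kb (chr2:41383393-41383746), in Sgcd, delta-sarcoglycan, at 695 and 558 kb, and in Khdrbs3, an RNA-binding protein, at 545 kb.

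Split by this distance, 1591 members lay at 1 kb or nearer, 1423 at 1 to 5 kb, 2531 at 5 to 50 kb and 530 beyond 50 kb. The share with KO H3K27ac was 10.1%, 10.1%, 9.60% and 12.5% in these groups, with overlapping intervals. The share inside a protein-coding gene was 62.2%, 67.0%, 58.6% and 43.4%. The median width stayed between 180 and 195 bp.

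H3K27ac in WT lay a median of 4039 bp from the lost regions, within 1 kb for 21.6% and within 5 kb for 55.3%. For regions primed in both genotypes these shares were 19.5% and 59.1% (differences 2.07, 0.586 to 3.54, and -3.78, -5.58 to -1.97). KO H3K27ac was within 1 kb of 22.2% of lost regions and 12.9% of those primed in both, and within 5 kb of 43.2% and 43.8%. That is no like comparison, since regions primed in both have no KO H3K27ac by definition and 10.1% of lost regions overlapped it. H3K4me3 and H3K27me3 were less often within 5 kb of the lost regions than of regions primed in both, a pattern not seen within 1 kb. KO H3K4me3 lay within 5 kb of 15.0%, against 21.9% for regions primed in both (difference -6.91, -8.33 to -5.49), and KO H3K27me3 within 5 kb of 9.73% against 13.2% (difference -3.45, -4.62 to -2.29). The corresponding WT differences were -4.96 (-6.15 to -3.79) and -2.78 (-3.79 to -1.78). Within 1 kb the differences were -0.177 (-0.867 to 0.505) and 0.325 (-0.162 to 0.807) in KO, and 0.0738 (-0.403 to 0.544) and 0.388 (0.0130 to 0.763) in WT. Over all distal regions, KO H3K4me3 was within 5 kb of 18.7% and WT H3K4me3 of 10.9%, above the 15.0% and 9.30% of lost regions. For H3K27me3 these shares were 9.28% in KO and 6.89% in WT, close to the 9.73% and 6.70% of lost regions.

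**Figure D3:**
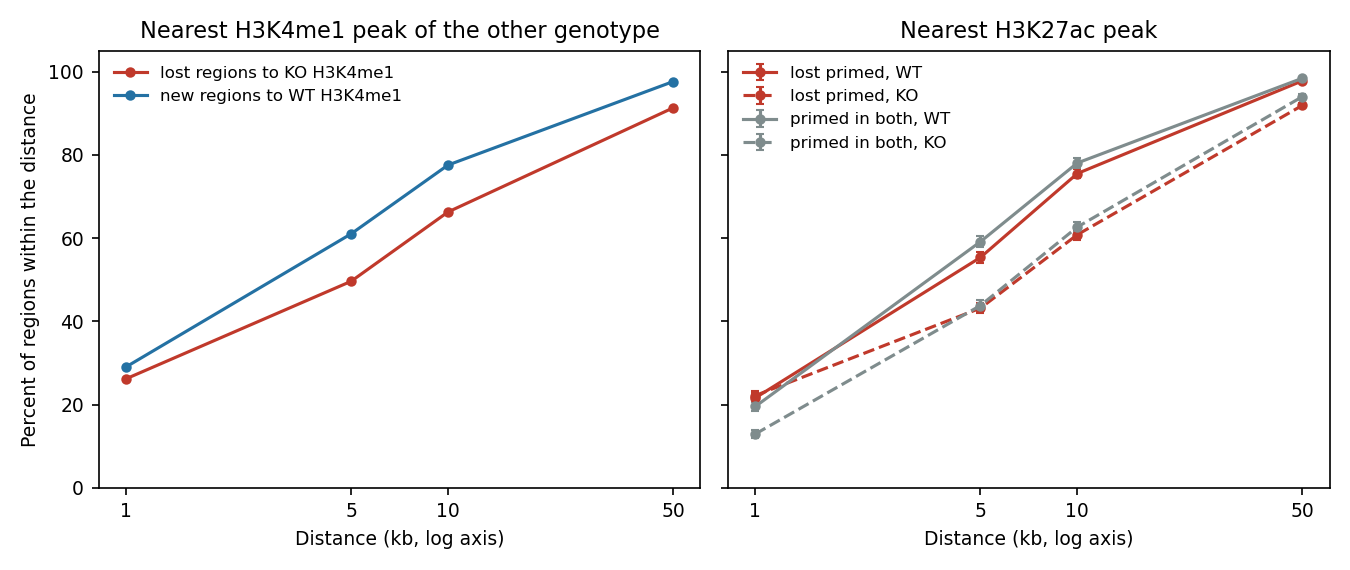
Left, percent of lost primed regions within 1, 5, 10 and 50 kb of a KO H3K4me1 peak, and of new primed regions within the same distances of a WT H3K4me1 peak. Right, percent of lost primed regions and of regions primed in both genotypes within these distances of WT and KO H3K27ac peaks. Distances are on a log axis, bars on the right are exact 95% intervals, and regions primed in both cannot overlap H3K27ac by their definition. On the left the values for 5 kb are 49.6% for lost and 61.0% for new regions.

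In all, 2310 genes held at least 1 lost region, 1545 of them exactly 1 and 77 at least 5. The gene with most was Pde3a, a phosphodiesterase that degrades cAMP and is inhibited by cGMP, with 11 lost regions of 104 to 257 bp, beside 8 new primed regions and 1 primed in both. None of its 11 had H3K27ac in KO. There the lost regions at chr6:141255571-141255740, chr6:141256956-141257155 and chr6:141257884-141258055 lay within 2.49 kb. Prkg1, the cGMP-dependent kinase of nitric oxide signalling, followed with 10 lost regions against 4 new and 4 primed in both, over a gene of 1201 kb.

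The other genes are given with their new regions beside the lost ones. Ptprg, a receptor tyrosine phosphatase, had 10 lost and 15 new, Cdk14, a cyclin-dependent kinase, 9 and 11, and Foxp1, a forkhead repressor, 9 and 14 with 12 primed in both. In Foxp1, 3 of the 9 lost regions had H3K27ac in KO. Fbxl17, an F-box protein, had 9 lost and 7 new, Ldlrad4, an inhibitor of TGF-beta signalling, 9 and 10, and Frmd4a, a FERM-domain scaffold, 8 and 12. Magi1, a scaffold of cell junctions, had 8 and 11, and Maml3, a Notch co-activator, 8 and 8. Another 4 genes tied at 8 lost regions and came later in alphabetical order, with 4 new in Phldb2, 10 in Plcb1, 15 in Prkce and 11 in St6galnac3. The 10 genes first named are long genes, from 258 to 1201 kb, against a median of 17.5 kb over all protein-coding genes.

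Per length the order was different. Among genes with at least 5 lost regions, the densest was Cyyr1, a cysteine- and tyrosine-rich membrane protein, with 6 in 98.0 kb (6.12 per 100 kb), against 1 new region inside the gene. Its lost regions ran from 124 to 406 bp, and 1 (chr16:85459319-85459553) had H3K27ac in KO. Calcrl, the receptor for adrenomedullin and calcitonin gene-related peptide, had 5 in 94.8 kb (5.28 per 100 kb), again with 1 new region, beside 3 primed and 5 active in both genotypes. The lost regions of Calcrl at chr2:84414926-84415059, chr2:84416540-84416820 and chr2:84418343-84418446 lay in a row within 3.52 kb. All 5 in Calcrl were within 1.07 kb of WT H3K27ac.

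Abi1, a subunit of the WAVE actin-regulating complex, had 5 lost and 2 new regions (4.99 per 100 kb). Sema6a, a transmembrane semaphorin, had 6 and 5 (4.76 per 100 kb), and Qk, the RNA-binding protein Quaking, 5 and 5 (4.43 per 100 kb). Genes were ranked by their number of lost regions, so these counts describe the top of a list and no gene was tested.

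**Figure D4:**
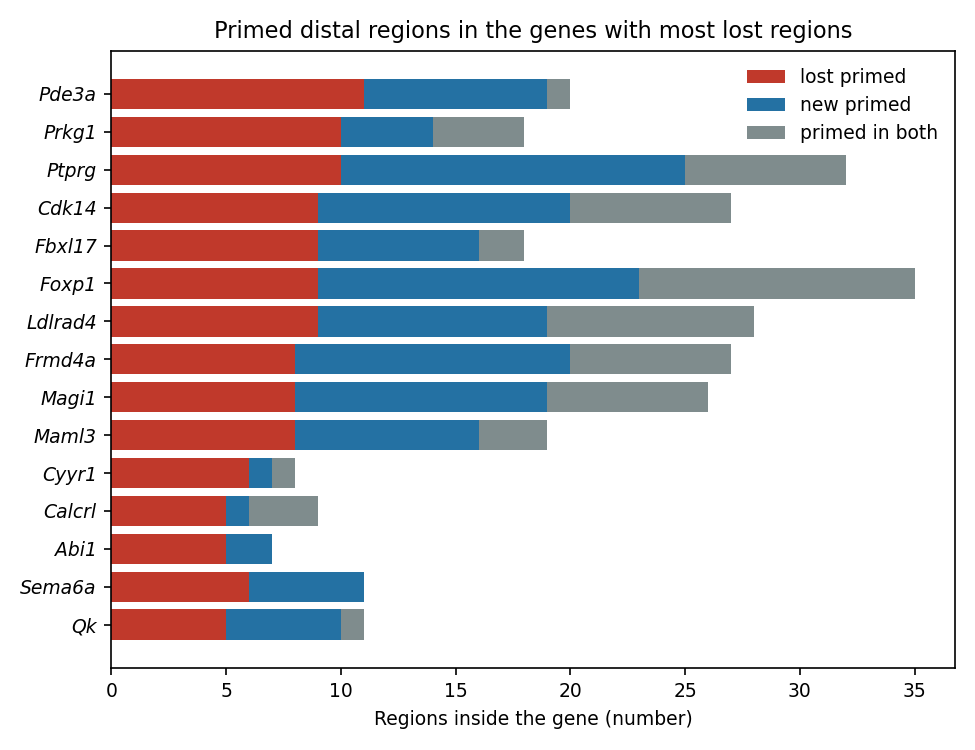
Number of lost primed, new primed and both-genotype primed distal regions inside 10 genes with most lost regions, from Pde3a to Maml3 (ties at 8 cut by alphabetical order), and the 5 densest per length among genes with at least 5, from Cyyr1 to Qk. Bars are stacked and start at 0. Pde3a has 11 lost regions, and Cyyr1 and Calcrl have 1 new region each.

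Within 5000 bp of a gene or inside it, 2642 of 20661 protein-coding genes (12.8%) had a lost region and 3391 (16.4%) a new one. Lost and new regions often shared a gene, with 1429 genes having both, 1213 lost only and 1962 new only. The counts below are read beside these shares and beside gene length, since long genes hold more regions. The lists are background knowledge of pathways and cell types and some share genes. Most had a longer median gene than the 17.5 kb of all genes. It was 61.4 kb for BMP and TGF-beta, 61.1 kb for junction and adhesion, 51.3 kb for VEGF and angiopoietin and 45.1 kb for Wnt. The DNA methylation list had 52.3 kb, venous 38.0 kb, aerocyte 32.3 kb and mural 29.7 kb. Medians were 24.0 kb for endothelial transcription factors, 23.1 kb for Notch, 22.3 kb for lymphatic, 22.0 kb for arterial and 20.2 kb for general capillary genes. Inflammatory genes had 12.9 kb.

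The endothelial lists are read beside the 12.8% of all genes with a lost and 16.4% with a new region, and no list was tested. Of 25 pan-endothelial genes, 11 had a lost region and 15 a new one, at a median gene length of 18.7 kb. Ets1, an ETS transcription factor, had 5 lost and 5 new. Eng, the endothelial TGF-beta co-receptor endoglin, had 3 and 1, Erg, the ETS factor that maintains endothelial identity, 3 and 2, and Tek, the angiopoietin receptor Tie2, 3 and 1. Of 25 endothelial transcription factors, 11 had a lost and 17 a new region. There Tcf4, a basic helix-loop-helix factor, had 6 lost against 19 new, and Epas1, the hypoxia factor HIF-2 alpha, 2 against 7. Of 17 genes of VEGF and angiopoietin signalling, 10 had a lost and 10 a new region, among them Nrp1, a co-receptor of VEGF, with 3 and 5, Vegfc, a lymphangiogenic ligand, with 3 and 2, and Flt1, the decoy receptor VEGFR1, with 2 and 5.

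**Figure D5:**
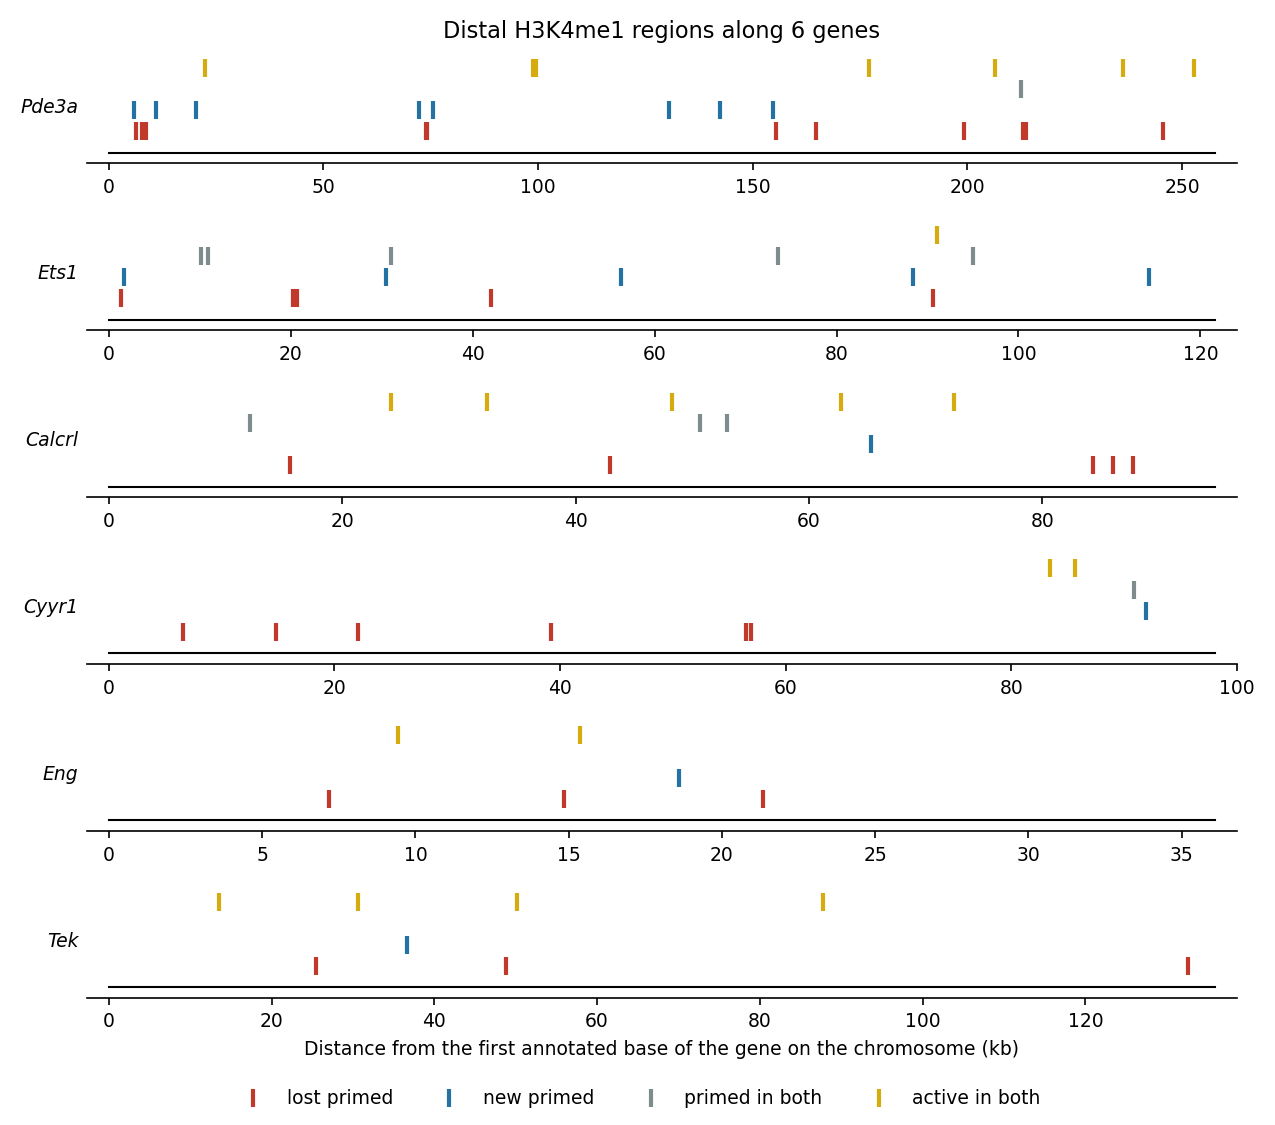
Positions of lost primed, new primed, both-genotype primed and both-genotype active distal regions along 6 genes, drawn to scale as kb from the first annotated base of each gene on the chromosome, without regard to strand. Pde3a, Calcrl and Cyyr1 come from the ranking by lost regions, and Ets1, Eng and Tek from the pan-endothelial list. Pde3a shows 11 lost regions along its length, and in Cyyr1 all 6 lie apart from the 2 regions active in both genotypes. Distal regions of other states are not drawn in any gene. In Cyyr1 they include 1 active in WT that lost H3K4me1, at 18.3 kb among the lost regions. Another 2 lie at 6.79 and 75.6 kb, the first beside a lost region at 6.58 kb.

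In Ets1 the 5 lost regions were 118 to 304 bp wide. One (chr9:32726704-32726922) lay 0.273 kb from WT H3K27ac, and another (chr9:32637528-32637698) 0.080 kb from KO H3K4me1. In Eng the 3 lost regions were at chr2:32653660-32653907, chr2:32661316-32661584 and chr2:32667877-32668000, and the last of these had H3K27ac in KO. The lost regions of Erg were 124 to 261 bp wide and 0.989 to 5.60 kb from KO H3K4me1. In Tek they were 130 to 335 bp wide, and the widest (chr4:94871564-94871898) was 7.77 kb from KO H3K4me1. Of these 14 members in 4 genes, 10 lay within 5 kb of H3K4me1 that was present in KO, where 49.6% of all 6075 lost regions did. With so few members this difference was not tested.

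Among capillary types, 5 of 14 general capillary genes had a lost and 7 a new region. They included Adgrl3, an adhesion receptor, with 7 lost and 7 new, and Sema3c, a secreted semaphorin, with 3 and 3. Of 14 genes of aerocytes, the capillary cells of gas exchange, 8 had a lost and 8 a new region. Ednrb, the endothelin B receptor, had 1 lost and 0 new, Chrm2, a muscarinic receptor, 2 and 2, and Nckap5 3 and 15. Of 17 arterial genes 5 had a lost and 8 a new region, with Nrp1 at 3 lost and 5 new, Efnb2, the ephrin-B2 ligand, at 1 and 5, and Dkk2, a Wnt antagonist, and Dll4, a Notch ligand, at 1 and 0 each. Of these 17 genes, 3 had more lost and 8 more new regions, where 1462 and 2586 of all 20661 genes did. More new than lost was also seen in other lists, such as 3 and 16 of 30 BMP and TGF-beta genes. Mural and mesenchymal genes went the other way, with 3 and 1 of 25. Of 10 venous genes 2 had a lost and 5 a new region, and of 10 lymphatic genes 0 had a lost and 2 a new one. Lists of 10 genes are too short to set apart from the 12.8% of all genes with a lost region.

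Among signalling lists, 5 of 22 Notch genes had a lost and 8 a new region, 9 and 13 of 34 Wnt genes, and 7 and 20 of 30 BMP and TGF-beta genes. Tgfbr3, the co-receptor betaglycan, had 5 lost and 6 new, and Tgfbr2, a TGF-beta receptor kinase, 3 and 3. Lrp6, a Wnt co-receptor, had 3 and 4. Of 30 guidance genes (median 155 kb), 14 had a lost and 18 a new region, and Slit3, a secreted ligand of Robo receptors, had 7 and 5.

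Of 23 junction and adhesion genes, 14 had a lost and 18 a new region, with 3 and 1 in Itgb3, integrin beta 3, and 2 and 3 in Cdh5. Of 22 inflammatory genes 6 had a lost and 7 a new region, and the NF-kappa B gene Nfkb1 had 1 and 9. Of 29 genes of DNA methylation and Polycomb, 7 had a lost and 10 a new region. The 5-methylcytosine oxidases Tet2 and Tet3 had 2 and 2, and 2 and 1, and Jarid2, a Polycomb cofactor, 2 and 0. Of 25 mural and mesenchymal genes 5 had a lost and 4 a new region, with the zinc finger repressor Zeb1 at 4 and 1 and its relative Zeb2 at 4 and 8. Lung epithelial genes had a lost region in 0 of 20 and leukocyte genes in 0 of 22, at median gene lengths of 6.73 and 10.9 kb. Each of these 2 lists had 1 gene with a new region.

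Marks at the ends of the genes around the regions were read last. Peaks at gene ends were not among the members, but the H3K4me1 values come from the same WT and KO lists that the rule compared. They are given as a description. Genes with lost regions only (1213) had H3K4me1 at an end in WT only in 13.7% of cases (11.8 to 15.7), where 9.53% of all genes did. The share was 11.6% (10.2 to 13.1) for genes with new regions only and 8.74% (8.31 to 9.19) for genes with neither. These classes also differed in how many genes had H3K4me1 at an end in WT at all, at 61.0%, 66.5% and 40.8%. The WT-only shares are of all genes in a class, marked or not. They do not give the share lost among gene ends marked in WT, so no higher loss per marked gene is read from them. H3K27ac was at an end in WT only at 6.60% (5.26 to 8.14), 7.70% and 5.61% of these classes, and at 5.89% of all genes. H3K4me3 was in KO only at 7.83%, 7.49% and 6.76%, with 6.90% over all genes. H3K27me3 was in KO only at 9.98%, 8.72% and 8.05%, with 8.29% over all genes. In the opposite directions, the genes with lost regions only had H3K4me1 in KO only at 3.96% (2.35% of all genes), H3K27ac in KO only at 2.80% (2.01%), H3K4me3 in WT only at 0.577% (0.682%) and H3K27me3 in WT only at 3.96% (3.43%). For all 4 marks the intervals of the genes with lost regions only and with new regions only overlapped in both directions. Genes with lost regions only were longer than genes with neither, at medians of 45.3 and 12.8 kb. The 1429 genes with both lost and new regions had a median of 116 kb. They had H3K4me1 at an end in WT at 71.7%, and in WT only at 12.0% (10.3 to 13.8). H3K27ac was in WT only at 5.95% of them, H3K4me3 in KO only at 6.86% and H3K27me3 in KO only at 8.89%.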

How the data were processed

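Peak lists of H3K4me1, H3K27ac, H3K4me3 and H3K27me3, 1 per genotype, were used as deposited by the authors. Their values, of the unit class other, are the chromosome, start, end and width in bp of each peak, and were not rescaled. The submitters' processing notes name MACS2 2.1.2.1, Bowtie2 2.2.6, deepTools 3.1.1, SAMtools, and for trimming cutadapt 1.14 and Trim Galore 0.4.4, with mm10. Peak threshold, spike-in use and pooling of samples are not given in the sources here. A higher depth or looser threshold in 1 genotype would move regions into or out of the members, and its part was not tested.

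Scripts ran in Python 3.11.15 with scipy 1.17.1 for intervals, pandas 2.3.3 and numpy 2.4.6 for overlaps and matplotlib 3.10.9 for figures. The steps were tested on simulated lists. Genes were 20661 protein-coding genes of GRCm38.p6 on chromosomes 1 to 19, used by their outer ends. Shares carry exact Clopper-Pearson intervals and differences Newcombe intervals, both at 95%. With 1 list per group there was no test between genotypes. The members and the 19 gene lists (376 of 383 genes found) were chosen with earlier results of these data known, and 1 of the lists is not reported here. Named regions were the 10 widest, the 5 widest with KO H3K27ac and the 5 inside genes farthest from KO H3K4me1. Named genes were the 10 with most members, the 5 densest with at least 5, and up to 4 per list, with ties cut alphabetically. Dnmt3a could also be named. Provisional symbols (Gm numbers and Rik clones) were passed over, except for transcripts named only to identify a sequence or a group of regions. Regions on chromosome 18 were counted but not named singly. Genes on that chromosome, such as Sema6a and Tcf4, could be named with their counts. Genes named at printed sequences, at miRNAs and at groups of neighbouring regions were chosen after their values were seen. The planned sequence analysis of whole regions was not run, as no genome sequence was used, and start windows took its place.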

Additional observations from a re-analysis of the deposited data

How the results depend on the processing

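Recomputed under 8 other settings were the number of lost regions, its ratio to new ones and the distance to KO H3K4me1. The shares with KO H3K27ac and inside genes were recomputed too. Other results were not recomputed. Of these results only the ratio has a direction that could reverse, and lost regions stayed fewer than new ones in all 8. The ratio and the median distance each left the interval of their main value under 5 settings. The share with KO H3K27ac did so under 3 and the share inside genes under 2. The number of lost regions stayed within 1.5 times of 6075 under 7 of them and fell to 2808 when each list kept peaks of at least 300 bp. The ratio of lost to new regions was 0.501 with peaks of at least 200 bp, 0.393 with at least 300 bp, 0.673 with H3K27ac within 500 bp counted, 0.728 over 5000 bp from gene ends and 0.722 with H3K4me3 and H3K27me3 regions kept. The share with KO H3K27ac was 11.9% with equal numbers of the widest peaks, 8.63% with an overlap of at least 100 bp and 13.1% with H3K27ac within 500 bp counted. The share inside genes was 58.8% and 57.8% with peaks of at least 200 and 300 bp. The median distance to KO H3K4me1 was 6324.5 and 8186 bp with those widths, 7321.5 bp with H3K4me1 within 500 bp counted, which removes the nearest members, 5502 bp with H3K27ac within 500 bp counted and 5409 bp over 5000 bp from gene ends. The cause was not tested for the other moves. KO H3K27ac was lower at lost than at kept regions in all 8, at 8.63% to 13.1% against 26.0% to 37.8%. No paired analysis was possible because the lists hold 1 column set per group and no replicate numbers, and leaving out replicates was not run for the same reason.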

Other observations

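miRNA genes lay near lost primed regions at a rate close to that of the other sets. Of 919 miRNA hairpins in the RefSeq table, 11 were within 1 kb of a lost region, 13 within 1 kb of a new primed region and 9 within 1 kb of a region primed in both genotypes. Per 1000 regions these are 1.81, 1.49 and 1.66, and 1.33 over all distal regions, with counts too small to order the sets. The hairpin of Mir6416 overlapped a lost region of 198 bp (chr7:64249831-64250028). Those of Mirlet7a-1 and Mirlet7f-1, members of the let-7 family that represses growth-promoting mRNAs, lay 32 and 387 bp from a lost region of 230 bp (chr13:48538304-48538533). None of these 3 had H3K27ac in KO at the neighbouring region. The mature sequences from RefSeq (GRCm38.p6), with the seed (bases 2 to 8) in capitals, show that both let-7 miRNAs share a seed that miR-6416-3p lacks.
mmu-let-7a-5p: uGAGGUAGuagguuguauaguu
mmu-let-7f-5p: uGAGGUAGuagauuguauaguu
mmu-miR-6416-3p: gCAAAGAGcagcaaaaggaag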
